A study of Mus musculus with 6 samples.

Results

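The miR-297, miR-466, miR-467 and miR-669 families are miRNAs of rodents whose genes lie mostly in an intron of Sfmbt2, and they were followed here in the Ly6Chigh and Ly6Clow monocyte subsets of the mouse. Members were all mouse assays, without the # mark of a second strand, whose name carries the number of 1 of these 4 families. This rule uses names and no measured value, and it found 29 of the 750 miRNA assays. Of the 29, 2 belong to miR-297, 8 to miR-466, 9 to miR-467 and 10 to miR-669. The names miR-467a and miR-467b each stand for an assay on both cards.

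The samples were freshly isolated monocytes of 3 DBA/1 mice, an inbred strain. Each mouse gave 1 Ly6Chigh (classical) and 1 Ly6Clow (non-classical) sample, which makes 6 samples and 3 in either subset. Treatment, age, sex and the sort gates are not given in the sources used here. Total RNA was measured on TaqMan low-density arrays, where every well returns the threshold cycle (Ct) of 1 assay, and a Ct lower by 1 cycle stands for 1 log2 unit more template. Reactions without signal are listed at 40, and an assay with a Ct under 35 was called detected.

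Mammalian miRNAs are cut from hairpin transcripts and guide the Argonaute complex to mRNAs, mainly by pairing of the seed, bases 2 to 8 from the 5′ end. Sfmbt2 encodes a Polycomb-group protein and is imprinted in the mouse, with expression from the paternal allele in extraembryonic tissue. Its intron holds a large array of miRNA hairpins that arose by repeated duplication in rodents, and Sfmbt2 with these miRNAs is best known for its part in placental growth. In macrophages, miR-467b has been described as a repressor of lipoprotein lipase, which releases fatty acids from triglycerides.

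In the RefSeq annotation of GRCm38.p6, 82 mouse miRNA genes carried 1 of the 4 numbers, and 72 of them lay within the bounds of Sfmbt2. Those 72 comprised 5 of 6 miR-297 genes, 24 of 29 miR-466 genes, 14 of 17 miR-467 genes and 29 of 30 miR-669 genes, and they were all the miRNA genes within Sfmbt2. A name can stand for many copies: miR-467a had 10 genes, miR-669a had 12 and miR-466b had 8, so that an assay of such a name cannot be tied to 1 gene. Of the 29 assays, 23 carried a name with a gene in Sfmbt2 and 9 of these were detected in at least 1 sample. A further 5 named a gene elsewhere, of which only miR-467F was detected, and miR-466a-3p was matched to no gene.

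RefSeq (GRCm38.p6) gave a mature sequence for 5 of the 29 assays, all with a gene outside Sfmbt2. They are shown because they display the repeat-like makeup of these families and because miR-467F is the detected member among them. Capitals mark the seed.
mmu-miR-467f: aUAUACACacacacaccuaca
mmu-miR-467h: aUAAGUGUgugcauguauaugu
mmu-miR-466j: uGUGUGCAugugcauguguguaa
mmu-miR-466k: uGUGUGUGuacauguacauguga
mmu-miR-669n: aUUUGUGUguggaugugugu

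The sequence of miR-467f, at chr11:69635419-69635439 on the minus strand, was 85.7% A or C and held a run of 12 bases in which 2 letters alternate. The other four were rich in G and U, at 68.2% for miR-467h (chr9:115381898-115381919, plus strand), 73.9% for miR-466j (chr10:60960802-60960824, plus strand), 69.6% for miR-466k (chr3:85467396-85467418, plus strand) and 90.0% for miR-669n (chr3:115979905-115979924, plus strand). Their longest alternating runs were 7, 7, 9 and 8 bases. The 5 seeds were all different. Among 1738 mature sequences in RefSeq, the seed of miR-467h was shared by 1 other, miR-668-5p, and the remaining seeds by none. Only these 5 of the 29 assays were matched to a sequence in that set. Seeds shared with the other members could therefore not be seen.

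These families were rarely detected. Of the 29 assays, 10 (34.5%) had a Ct under 35 in at least 1 sample, against 383 of the 721 other miRNA assays (53.1%). The remaining 19 were listed at 40 in all 6 samples. The families differed: 7 of 9 miR-467 assays were detected in some sample, but only 1 of 2 for miR-297, 1 of 8 for miR-466 and 1 of 10 for miR-669. The cards differed too, with 7 of 9 members (77.8%) on card A against 215 of 366 other assays (58.7%), and 3 of 20 members (15.0%) on card B against 168 of 355 (47.3%). Card A is the first listed and card B the second, and the labels name only the primers of pool A. Whether those primers served card B as well is not given in the sources used here, and the part of this in the low detection on card B was not tested.

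Most detections came from 1 animal. In the Ly6Chigh samples of mice 1, 2 and 3, 3, 6 and 0 members were detected, and in the Ly6Clow samples 1, 9 and 0. That made 19 detections in 174 reactions, of which 15 (78.9%) were in mouse 2, 4 in mouse 1 and none in mouse 3. Among the other 721 assays, the counts were 166, 210 and 177 in Ly6Chigh and 206, 285 and 146 in Ly6Clow. Mouse 2 thus held 41.6% of 1190 detections and mouse 3 held 27.1%. On card A, mouse 2 held 81.8% of the 11 detections of members and 34.3% of those of the other assays. On card B these shares were closer, at 75.0% of 8 and 53.1%. Mouse 3 held 33.6% of the detections of the other assays on card A and 17.1% on card B. By subset, the number of members detected was 3.00 ± 3.00 in Ly6Chigh and 3.33 ± 4.93 in Ly6Clow (SD, n = 3), a difference far inside the spread between mice.

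**Figure D1:**
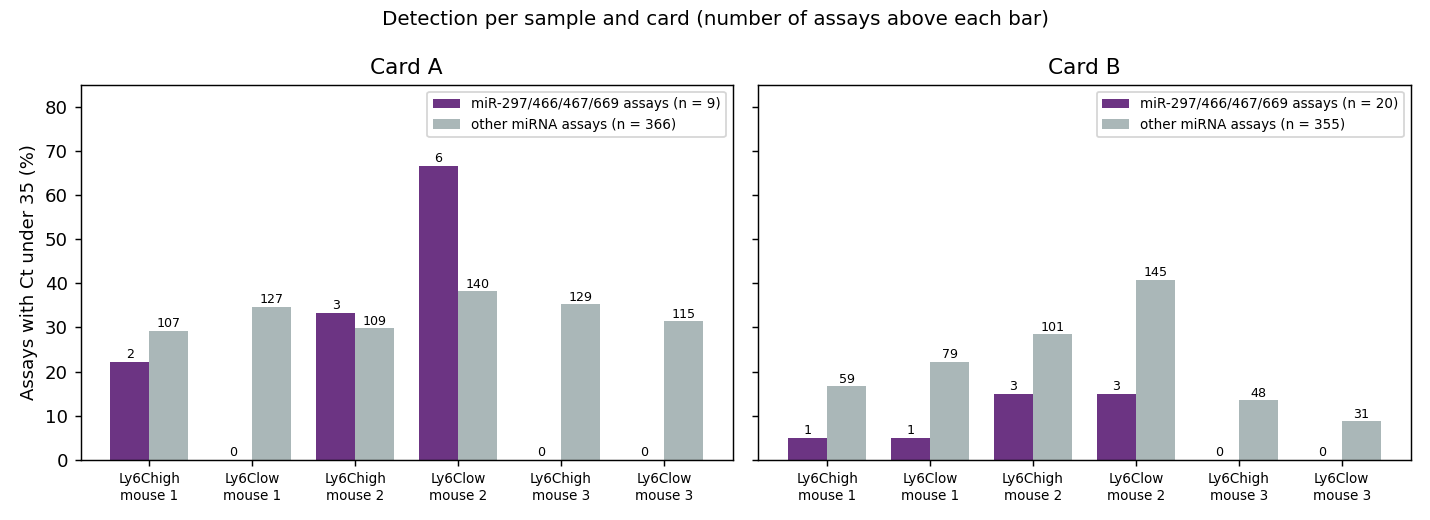
The share of assays with a Ct under 35, in percent, is plotted for each of the 6 samples and both cards, for the miR-297, miR-466, miR-467 and miR-669 assays (purple) beside the other miRNA assays (grey), with the number of assays above each bar. The families were at 0 in both samples of mouse 3, where the other assays were still detected, and reached their highest counts in mouse 2, with 6 and 9 members over both cards.

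The miR-467 family carried this pattern. It accounted for 13 of the 19 detections, and 12 of the 13 (92.3%) were in mouse 2, with 5 members in Ly6Chigh and 7 in Ly6Clow. The miR-466 family was detected through miR-466E-5P alone, in both samples of mice 1 and 2. The miR-297 family was detected once, in the Ly6Chigh sample of mouse 1, and the miR-669 family once, in the Ly6Clow sample of mouse 2. Of the 10 detected assays, only miR-466E-5P was named by the rule set for naming members, and the other nine are named after their values were seen.

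In the following, values are Ct in mice 1, 2 and 3, first in Ly6Chigh and then in Ly6Clow. The assay for miR-467a on card B had 35.98, 24.94 and 40 in Ly6Chigh and 40, 21.97 and 40 in Ly6Clow. It gave the lowest Ct of any member and ranked 10th of 104 detected miRNA assays on card B in the Ly6Chigh sample of mouse 2 and 12th of 148 in its Ly6Clow sample. The assay for miR-467a on card A had 40, 30.96 and 40 in Ly6Chigh and 40, 28.96 and 40 in Ly6Clow. Both assays of this name were thus under 35 in mouse 2 and in no other animal.

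For miR-467c, the values were 40, 32.01 and 40 in Ly6Chigh and 40, 27.97 and 40 in Ly6Clow. For miR-467e they were 40, 32.08 and 40 in Ly6Chigh and 40, 29.99 and 40 in Ly6Clow. For miR-467F they were 40, 29.95 and 40 in Ly6Chigh and 39.91, 31.02 and 40 in Ly6Clow. These 3 members repeat the order of miR-467a, with a signal under 35 in both samples of mouse 2 and none elsewhere. Unlike the others, miR-467F, whose sequence is printed above, had the lower Ct in the Ly6Chigh sample.

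The card A assay for miR-467b, the member linked to lipoprotein lipase, had 29.96, 40 and 40 in Ly6Chigh and 40, 26.98 and 40 in Ly6Clow. It was thus detected in 1 sample of mouse 1 and 1 sample of mouse 2. Its card B namesake was undetected in all 6 samples. Further single detections were miR-467d, at 32.98, and miR-669a, at 29.00, both in the Ly6Clow sample of mouse 2, and miR-297b-5p, at 28.99 in the Ly6Chigh sample of mouse 1.

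The most widespread member was miR-466E-5P, the 5′ arm of miR-466e, with 28.98, 29.98 and 40 in Ly6Chigh and 27.13, 30.02 and 40 in Ly6Clow. It was under 35 in 4 samples and at 40 in both samples of mouse 3. Its place among the detected assays of card B was 12th of 60 and 51st of 104 in the Ly6Chigh samples of mice 1 and 2, and 17th of 80 and 106th of 148 in the Ly6Clow samples. Of the 19 detected reactions of members, 15 (78.9%) had a Ct within 0.05 cycles of a whole number, so that these levels are read mostly in steps of about 1 cycle.

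**Figure D2:**
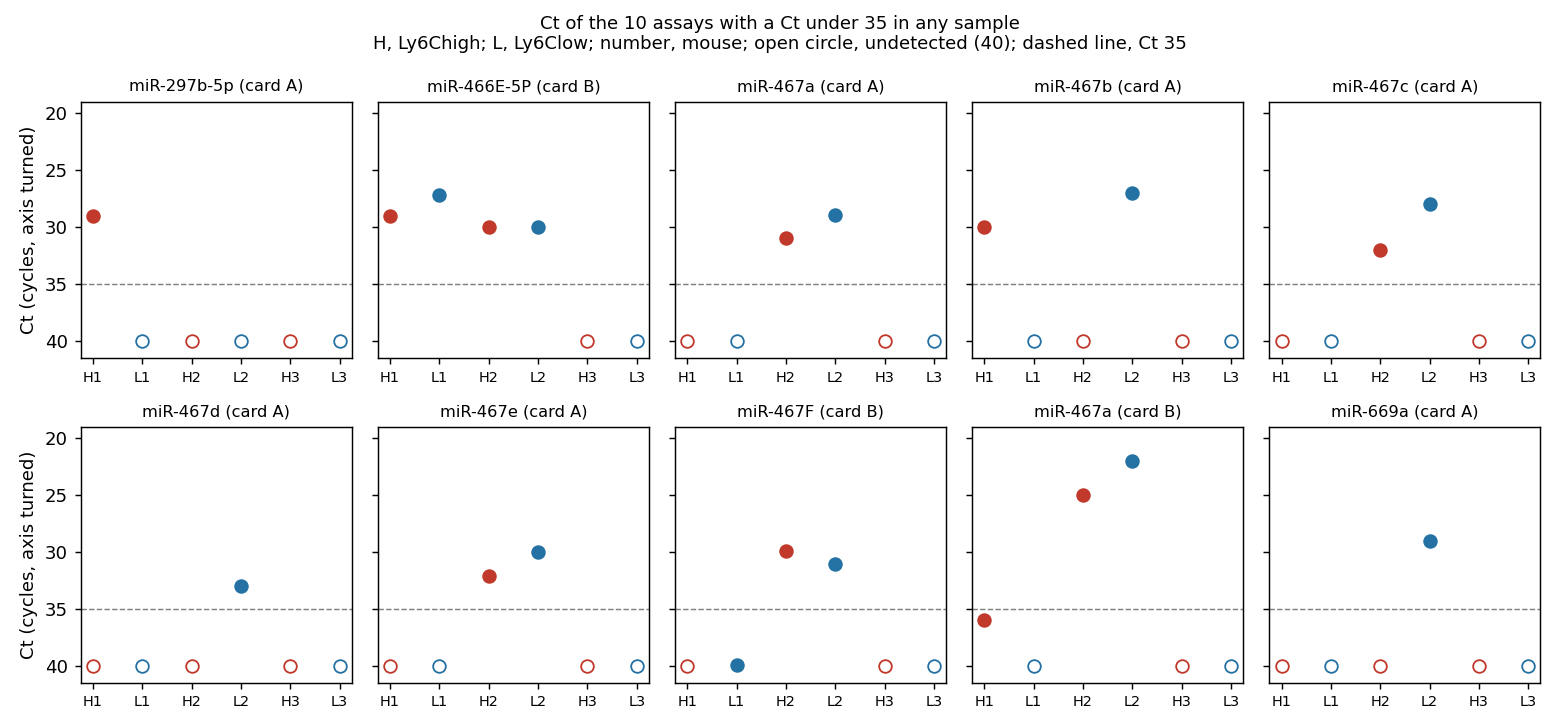
Each panel plots the threshold cycle (Ct, in cycles, axis turned so that more signal is higher) of 1 of the 10 assays detected in any sample, with Ly6Chigh (H) in red, Ly6Clow (L) in blue, the mouse as a number, open circles for reactions listed at 40 and a dashed line at 35. Mouse 3 is at 40 in every panel, and 5 of the 10 assays lie above the line in both samples of mouse 2 and in no other sample.

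Both samples of mouse 2 and none of the other four had a signal under 35 for 5 of the 29 members (17.2%), namely both miR-467a assays, miR-467c, miR-467e and miR-467F. The same pattern was found for 50 of the 721 other assays (6.93%). On card A it held for 3 of 9 members (33.3%) and 8 of 366 others (2.19%), among them miR-30a, miR-30d, miR-30e and miR-31. On card B it held for 2 of 20 members (10.0%) and 42 of 355 others (11.8%). Counted over assays detected in at least 1 sample, it held for 3 of 7 members (42.9%) and 3.72% of others on card A, and for 2 of 3 members (66.7%) and 25% of others on card B. Of the members detected anywhere, 0 of 10 were detected in mouse 3, against 183 of 383 others (47.8%), with 61.4% on card A and 30.4% on card B.

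The likeness of the samples of 1 mouse was taken as the number of members detected in both as a share of those detected in either. In mouse 2 this was 6 of 9 (66.7%) and in mouse 1 it was 1 of 3 (33.3%). In mouse 3 nothing was detected, so that no share exists. Pairs of a Ly6Chigh and a Ly6Clow sample from different mice shared 2 of 10 (20.0%, mice 1 and 2) and 1 of 6 (16.7%, mice 2 and 1), and the 4 pairs with mouse 3 shared none. The zeros with mouse 3 follow from its lack of any detected member. Over mice 1 and 2 alone, the mean share was 50.0% within and 18.3% between mice for the members, a gap of 31.7 percentage points, and 54.4% and 43.9% for the other assays, a gap of 10.5. The shares within mice were thus close to those of the other assays, 39.8% in mouse 1 and 68.9% in mouse 2, while the shares between mice were lower. In mouse 1, the share of the other assays was 27.9% on card A and 66.3% on card B. Card A of the Ly6Chigh sample of mouse 1 stands apart, as described below, and enters every share of that sample over both cards. With the pairs of mouse 3 counted, the gap was 43.9 points, from 50.0% and 6.11%.

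By card, the shares of members within mice 1 and 2 were 0% and 50.0% on card A, beside a mean of 7.14% between these mice, and 51.6% and 47.4% on average for the other assays. On card B they were 1 of 1 and 3 of 3 within mice and 33.3% between them, beside 64.6% and 40.3% for the other assays. Likeness within a mouse was common to card B as a whole, since the Ct values of its 74 tested assays had a Spearman rho of 0.79 to 0.90 within mice and of −0.20 to 0.35 between mice. Within a subset, the samples of mice 1 and 2 shared 1 of 8 members (12.5%) in Ly6Chigh and 1 of 9 (11.1%) in Ly6Clow, beside 31.0% and 59.9% of the other assays. These shares rest on very few detections, and 3 mice allow only 6 pairings, so no test of the pairing could pass 0.05. For the 6 members detected in both samples of mouse 2, the Spearman rho between their Ct values was 0.029, given as a description. For the 202 other assays detected in both it was 0.93. The 6 values come from both cards and include near ties, such as 29.95 and 29.98 in Ly6Chigh. The lowest Ct was that of miR-467a on card B in both samples.

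To set levels beside each other, the U6 small nuclear RNA of the same card was subtracted by the authors, and −ΔCt is used here as a log2 level relative to U6. The 13 miR-467 reactions under 35 had a median of −7.30 and ranged from −12.22 to −0.08, and the 4 of miR-466 had a median of −5.49. Single reactions gave −6.33 for miR-297b-5p and −8.24 for miR-669a. Only miR-467a on card B came near the level of U6, at −0.08 in the Ly6Chigh and −1.94 in the Ly6Clow sample of mouse 2. Assays can differ in efficiency, so the order of levels between assays is a description.

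Assays of the same name read differently. The card B assay for miR-467a read 6.22 log2 units above the card A assay in the Ly6Chigh sample of mouse 2 and 6.26 above it in the Ly6Clow sample, a gap that was nearly the same in both. For miR-467b the order was the other way round, since the card A assay was detected in 2 samples and the card B assay in none. Which arm or copy each assay amplifies is not given in the sources used here.

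Within mouse 2, the 6 members detected in both subsets were compared as Ly6Chigh minus Ly6Clow. The log2 differences relative to U6 were 1.89 for miR-467a and 1.81 for miR-467e on card A and 1.86 for miR-467a on card B. That of miR-467c was −0.14, while miR-466E-5P and miR-467F gave 4.86 and 5.90. Their median was 1.88 with 5 of 6 above 0, beside a median of 0.91 and 160 of 202 above 0 (79.2%) for the other assays. On card B, miR-467F lay above the highest of the 95 other assays, at 4.89.

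In raw Ct the picture turns. The Ly6Chigh sample of mouse 2 had the higher Ct, thus less signal, by 2.00 cycles for miR-467a on card A, 4.04 for miR-467c, 2.08 for miR-467e and 2.97 for miR-467a on card B. For miR-466E-5P and miR-467F the gaps were −0.03 and −1.07 cycles. The other 202 assays had a median gap of 3.00 cycles, and U6 itself was higher by 3.89 cycles on card A and 4.83 on card B. For both miR-467a assays and miR-467e the direction in mouse 2 thus turned with the subtraction of U6, for miR-467c it was lower in Ly6Chigh either way, and 1 animal gives no replicate.

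**Figure D3:**
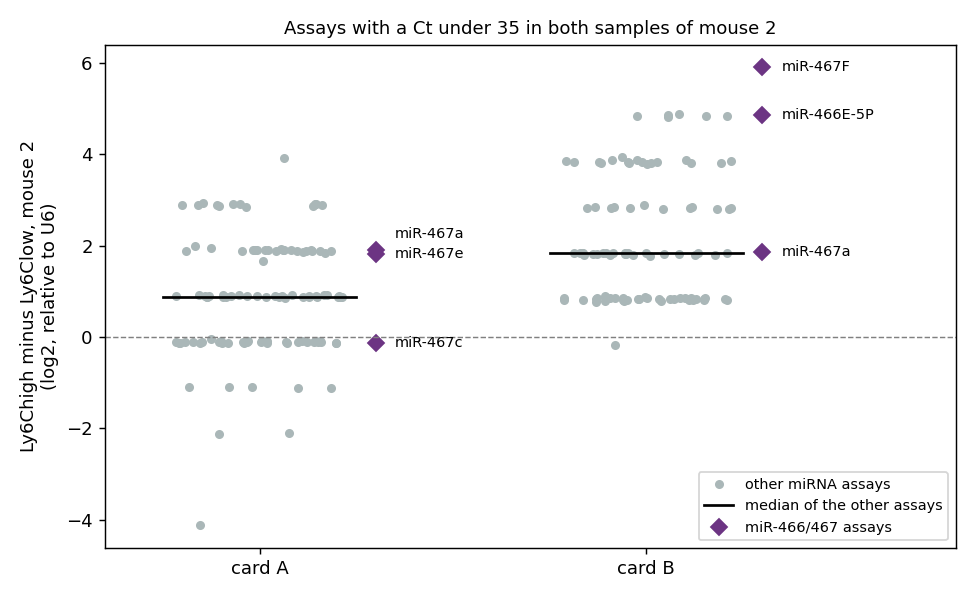
The difference Ly6Chigh minus Ly6Clow in mouse 2 is plotted on the log2 scale relative to U6, by card, for every assay with a Ct under 35 in both samples. Diamonds are the 6 members, grey points the 107 and 95 other assays of cards A and B and black lines their medians of 0.88 and 1.83, and miR-467F lies highest at 5.90.

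Only miR-466E-5P of the 29 members had a Ct under 35 in at least 3 samples and could enter the comparison of the subsets, whereas 200 of the 721 others did (27.7%). None of the 201 assays tested differed between the subsets by limma with Benjamini-Hochberg adjustment at 0.05, so the share called was 0%, and 2 had an unadjusted p under 0.05. The −ΔCt of miR-466E-5P was −9.74 ± 7.89 in Ly6Chigh and −11.00 ± 5.84 in Ly6Clow (SD, n = 3), a difference of 1.27 (SE 4.84), with an adjusted p of 0.985 in limma. By a two-sided exact permutation test p was 0.8, where 3 samples against 3 cannot give less than 0.1. Neither test used the pairing of the samples by mouse. With the mouse as a block in limma, the SE was 1.77 and the adjusted p 0.949.

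The median difference over all 201 assays was −0.45. Within mice the differences of miR-466E-5P were 0.50, 4.86 and −1.56, of which the last compares 2 undetected reactions and equals the difference of U6. The 3 Ly6Chigh values, −5.24, −5.13 and −18.85, overlapped the 3 Ly6Clow values, −5.73, −9.99 and −17.29. The direction was negative on raw Ct, at −0.61, and after median normalization, at −0.33. It also turned without the Ly6Chigh sample of mouse 1 (−0.98) or of mouse 2 (−1.04) and without the Ly6Clow sample of mouse 3 (−1.87), and it rose to 5.82 without the Ly6Chigh sample of mouse 3.

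Several small RNAs that are no miRNAs had their strongest signal in mouse 2 on card A. On card A, the small nucleolar RNA snoRNA135 had a Ct of 40, 25.96 and 40 in Ly6Chigh and 36.00, 21.98 and 40 in Ly6Clow. The control snoRNA202 had 31.92, 22.97 and 40 in Ly6Chigh and 30.96, 18.99 and 40 in Ly6Clow. The control U87 was detected in mouse 2 alone on card A, at 28.97 and 24.99. These 3 controls had their lowest Ct in mouse 2 and 40 in mouse 3, while U6 was detected in all 6 samples. On card B, only snoRNA135 was detected in both samples of mouse 2, at 23.96 and 20.00, and it was also detected in the Ly6Clow sample of mouse 1, at 32.36. There, snoRNA202 and U87 were detected in the Ly6Clow sample of mouse 2 alone, at 33.98 and 31.99. The RNA Y1 was under 35 in mouse 2 alone on card A, at 29.95 and 27.99. On card B, Y1 was at 40 in the Ly6Chigh and at 28.97 in the Ly6Clow sample of mouse 2. In mouse 1 it was at 30.01 and 31.74 on that card. The part of this in the miR-467 result was not tested.

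**Figure D4:**
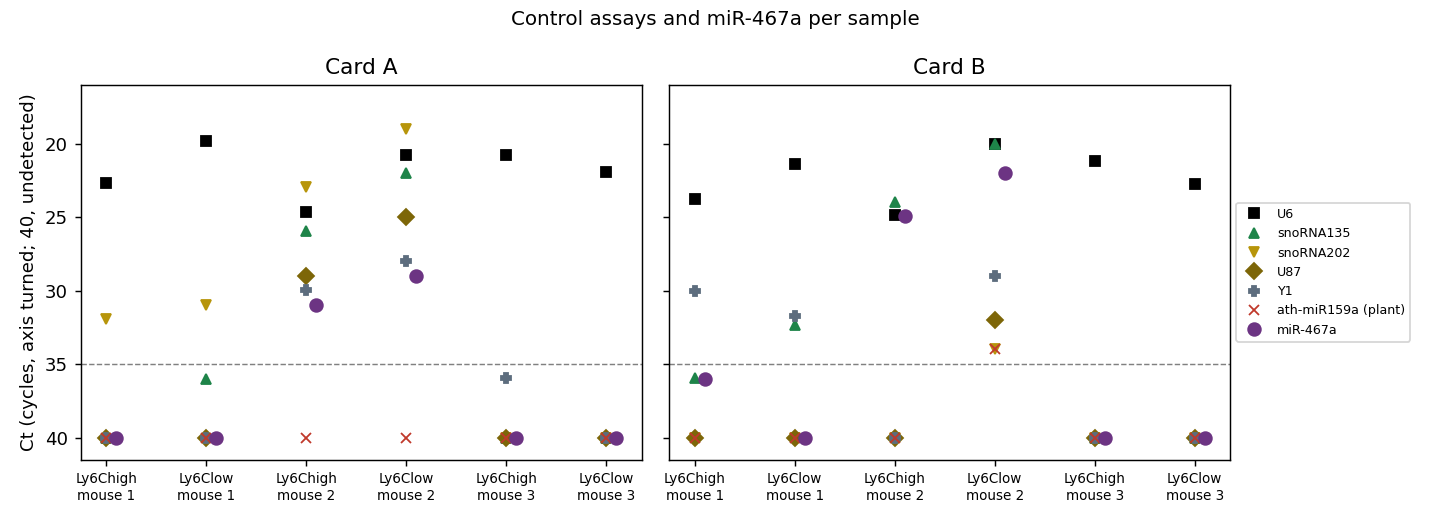
Threshold cycles (Ct, in cycles, axis turned) of U6, snoRNA135, snoRNA202, U87, Y1, the plant control and miR-467a are plotted by sample and card, with undetected reactions at 40 and a dashed line at 35. U6 is detected in all samples, whereas snoRNA135 is at 25.96 and 21.98 on card A in mouse 2 and at 40 in mouse 3.

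Markers of other cells gave no uniform order of the mice. Relative to U6, the summed level of the 3 lymphocyte markers (miR-150, miR-181a and miR-342-3p) was 0.92 and 0.82 log2 units in mouse 2, against −2.28 to −0.13 in the other four samples. The erythroid list, in which miR-486 was undetected throughout and miR-451 gave the signal, stood at −8.30 and −10.20 in mouse 2 and at −16.34 to −11.04 elsewhere. The pair of endothelial and platelet markers, miR-126-3p and miR-126-5p, stood at −6.24 and −8.14 against −16.34 to −8.21. These 3 sums were thus highest in mouse 2 relative to U6. For the endothelial and platelet pair, however, the Ly6Clow sample of mouse 2, at −8.14, was about level with the Ly6Chigh sample of mouse 3, at −8.21. The lower ends, −2.28 and −16.34, came from card A of the Ly6Chigh sample of mouse 1, which stands apart as described below.

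In raw Ct a lead of both mouse 2 samples over all other samples was not seen, apart from miR-126-5p. That assay was under 35 in the Ly6Clow sample of mouse 2 alone, at 32.99. In the Ly6Chigh sample of mouse 2, miR-451 had a Ct of 32.97. It had 30.94 in the Ly6Clow sample of mouse 1 and 31.96 in the Ly6Chigh sample of mouse 3. For miR-126-3p the same samples had 30.98, 28.97 and 28.99, and for miR-342-3p they had 27.00, 21.00 and 23.96. The Ly6Clow sample of mouse 2 was nearly level with that of mouse 1 for these markers, at 30.96, 28.99 and 21.00. For miR-150 the Ly6Chigh samples of mice 1, 2 and 3 had 29.98, 23.98 and 24.98, lowest in mouse 2. Its Ly6Clow samples had 20.96, 20.97 and 23.98. For miR-181a the values were 24.99, 27.98 and 24.99 in Ly6Chigh and 24.97, 24.96 and 26.97 in Ly6Clow. The sums of the epithelial and neuronal lists were highest in the Ly6Chigh sample of mouse 1, at 0.69 and −4.32, and the liver and muscle markers were undetected in mouse 2. All these markers were read on card A, and card A of the Ly6Chigh sample of mouse 1 is the card that stands apart below. The part of these markers in the detection of miR-467 was not tested. Fewer cells of a type and less RNA per cell cannot be told apart in such bulk samples.

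One card stood apart. The myeloid markers miR-223, miR-142-3p and miR-142-5p were detected in 5 samples, with miR-223 at a Ct of 16.96 to 21.95, but were all at 40 on card A of the Ly6Chigh sample of mouse 1. The Ct values of that card correlated with those of the other five samples at a Spearman rho of 0.10 to 0.15, against 0.73 to 0.94 among the others. The detections of miR-297b-5p and of miR-467b in mouse 1 rest on this card. With its reactions counted as undetected, members were detected at a mean of 2.83 per sample instead of 3.17, and the single miR-297 detection is lost. With this card left out of the likeness, the gap with all pairs counted was 75.0 percentage points. There, pairs with this sample were compared on card B alone and the other pairs over both cards.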

How the data were processed

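The data were TaqMan low-density array values of 6 monocyte samples, from 10 ng of RNA each, on 2 cards of 768 wells in all, 18 of them controls. The authors deposited raw Ct values, which are log2 values of opposite sign, and ΔCt, in which U6 of the same sample and card was subtracted. A deposited table of ratios between the subsets holds the authors' own comparison and was not used. The Ct software is not given in the sources used here. Detection was a Ct under 35. Assays under 35 in at least 3 samples were tested on −ΔCt with limma 3.58.1 in R 4.3.3, without a block, first checked on simulated data. Descriptions were made in Python 3.11.15 (matplotlib 3.10.9, scipy 1.17.1, numpy 2.4.6, pandas 2.3.3). Samples of 1 number came from 1 mouse per the labels, and their deviations from the subset means correlated at 0.32, 0.62 and 0.72. The rule named members detected in all 6 samples, the 10 tested ones with the largest difference, and those without overlap. Members and lists were chosen with earlier results of these data known. Alternatives were other normalizations, filters, detection limits and floors, the mouse as a block, and samples left out. The number of arrays limits the precision.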

Additional observations from a re-analysis of the deposited data

Results flagged for a closer look

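The plant control assay, ath-miR159a, which has no counterpart in the mouse, came up at Ct 33.97 in 1 reaction, in Ly6Clow of mouse 2 and on card B, and stood at 40 in all other reactions. It drew attention as a signal outside the measurements compared here. This is the card on which 3 members, miR-467a, miR-466E-5P and miR-467F, were detected at a Ct of 21.97, 30.02 and 31.02. The cause was not tested.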

How the results depend on the processing

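No assay of these families was called in any of the settings run. With all 750 assays tested in limma, 0 of 29 members and 9 of the 750 assays had an unadjusted p under 0.05, and none was called. Of the 29 members, 19 were at 40 in all 6 samples. Their values hold only the U6 of the card, so this setting gives no result about them. For miR-466E-5P, the difference of 1.27 became −0.61 on raw Ct and −0.33 after median normalization, and with single samples left out it ran from −1.87 to 5.82. In limma its adjusted p ran from 0.738 to 1.00 over 16 settings. With the mouse as a block the difference was 1.27 (SE 1.77) and the adjusted p 0.949, and the block changed no call. The median over the tested members, here 1 assay, likewise ran from −1.87 to 5.82, and with a Ct under 35 required in all 6 samples no member was left. The median of all assays tested shifted from −0.45 to −2.32 on raw Ct and to −1.79 after median normalization. Members detected per sample, 3.17 on average, numbered 2.67 under a limit of 32 and 3.50 under 40, ran from 2.00 to 3.80 with single samples left out (2.00 without the Ly6Clow sample of mouse 2), and were 1.00 without mouse 2, 3.75 without mouse 1 and 4.75 without mouse 3. The gap in likeness, 43.9 points, was 33.8 under a limit of 32, 32.8 under 40, 22.1 on card A, 88.9 on card B, 75.0 without card A of the Ly6Chigh sample of mouse 1, 31.7 without mouse 3, and 28.3 to 62.5 with single samples left out (28.3 and 29.2 without the Ly6Chigh or Ly6Clow sample of mouse 2). The difference between the subsets in members detected, −0.33, ran from −2 to 2.50 with single samples left out. Leaving out that card or a whole mouse was chosen after seeing the data. The number of samples and the steps of about 1 cycle limit all of these values.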

Other observations

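Other assays of the same numbers, outside the rule, were also undetected in mouse 3. The second strand of miR-467e had a Ct of 30.97, 28.99 and 40 in the Ly6Chigh and of 28.86, 27.97 and 40 in the Ly6Clow samples of mice 1, 2 and 3. The second strand of miR-297a had a signal in Ly6Chigh of mouse 2 alone, just under the limit of 35, and 33.69, 33.97 and 40 in Ly6Clow. The rat assays of miR-466b and miR-466c were undetected in all 6 samples. Of the remaining marker lists, the 6 epithelial markers were detected in 1 to 4 per sample, the 2 neuronal markers in 1 per sample, the liver marker miR-122 in 3 samples and a muscle marker in 1 sample.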
